A study of Mus musculus with 2 samples.

Results

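Type 1 conventional dendritic cells were picked out of tumor leukocytes by their own transcripts: 180 of 18539 cells, 74 of 10095 in the DOPAC library and 106 of 8444 in the Control library. Barcodes entered with 500 or more unique molecular identifiers (UMIs, tags that mark single captured transcripts), 200 or more genes and no more than 10% of UMIs from mitochondrial genes. The cells were then chosen by raw UMIs of 12 gate genes: a kept cell was taken when its UMIs of Xcr1 and Clec9a came to at least 2, when it had no UMI of Cd209a, Siglech, Cd79a, Cd3d, Cd3e or Cd3g and at most 1 UMI of C1qa and C1qb together, and when it did not carry both Ccr7 and Fscn1. Levels of the gate genes are therefore description only.

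The leukocytes were sorted by CD45 from B16-F10 tumors, a melanoma line grown in wild-type mice, and profiled by droplet single-cell RNA sequencing. DOPAC (3,4-dihydroxyphenylacetic acid) is a breakdown product of dopamine, and the mice of the DOPAC group received it while those of the Control group received vehicle. Each group was deposited as 1 library; the design text gives 4 mice per group, and no tag ties a cell to its mouse. The protocol text speaks of colon tissue, whereas the tissue label and the title name tumors; the dose, the route, the time of treatment and the age of the mice are not given in the sources used here.

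Type 1 conventional dendritic cells take up material from dying cells and present it on MHC class I to CD8 T cells, a route called cross-presentation. Xcr1 is the receptor for the chemokine Xcl1 made by NK and CD8 T cells, Clec9a binds actin exposed on dead cells, and Irf8 and Batf3 are the transcription factors on which the lineage depends. In tumors these cells are known as a source of Cxcl9 and Cxcl10, which attract T cells, and of Il12b.

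With 1 library per group there was no replicate check, so no test between groups and no p-value is given, and cells were not used as replicates. Levels are summed UMIs of the gated cells of a library scaled to a total of 1000000 (CPM), and every interval given is a 95% interval that covers only counting error. Gated cells held 583175 UMIs in the DOPAC library and 2006210 in the Control library. They were shallower in the DOPAC library, at a median of 6934 UMIs per cell (1183 to 19551) against 18785 (5621 to 45449) in the Control library, and the same held over all kept cells, at medians of 3677 and 9572. Of 32 barcodes found in both libraries, 0 lay in the gate. Doublet scores marked 3 of the gated cells in each library, and these were kept in the main values.

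The gated cells carried the markers of type 1 dendritic cells, whereas the cell type label of both libraries reads lymphocyte. Among the 4 markers that the gate did not use (Irf8 is given with the transcription factors), Wdfy4, needed for cross-presentation, stood at 845 CPM (772 to 923) in DOPAC cells, against 1082 CPM (1037 to 1129) in Control cells. Naaa, a lysosomal amidase, stood at 696 CPM (630.1 to 767) in DOPAC cells, against 884 CPM (843 to 926) in Control cells, and Cadm1, an adhesion molecule, at 559 CPM in DOPAC cells and 384 CPM in Control cells, 1.45-fold higher (1.27 to 1.66). UMIs of Wdfy4, Naaa and Cadm1 together ranged over 0 to 59.5 (median 16.3) per 10000 UMIs in DOPAC cells, and over 0 to 74.7 (median 23.2) in Control cells. Only 2 DOPAC cells and 1 Control cell had none of the 3 transcripts, and all 3 were present in 40 DOPAC and 67 Control cells. UMIs of these 3 genes, Xcr1 and Clec9a together reached 15 per 10000 in 57 DOPAC (77.0%) and 92 Control cells (86.8%). The other 17 DOPAC and 14 Control cells lay below that level. Both Xcr1 and Clec9a were present in 49 DOPAC and 83 Control cells. At the threshold, cells with exactly 2 UMIs of Xcr1 and Clec9a numbered 20 and 15 and had medians of 9.19 and 14.6 per 10000 for Wdfy4, Naaa and Cadm1, in the DOPAC and Control library. Cells just outside it, with 1 such UMI and every other criterion met, numbered 69 and 91 and had medians of 3.03 and 2.53.

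The cells were a smaller share of leukocytes in the DOPAC library, and a larger share of its dendritic cells. Their share was 0.733% in the DOPAC library (0.576 to 0.919) and 1.26% in the Control library (1.03 to 1.52), and the difference was -0.522 percentage points (-0.822 to -0.237). Among cells of 4 dendritic gates (the type 1, Cd209a, mature and plasmacytoid), they were 74 of 210 DOPAC cells, or 35.2% (28.8 to 42.1), and 106 of 604 Control cells, or 17.5% (14.6 to 20.8). That difference was 17.7 points (10.7 to 24.9). All shares are of a CD45 sort, in which a larger share of one class lowers the others.

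The share of all kept cells depended on how the cells were chosen. Counting every cell with at least 2 UMIs of Xcr1 and Clec9a, without the other criteria, gave 228 DOPAC cells (2.26%) and 542 Control cells (6.42%). Counting cells whose UMIs of Xcr1, Clec9a, Wdfy4, Naaa and Cadm1 reached 15 per 10000, here called 5-marker cells, gave 2.67% and 5.41%. When every cell was first thinned to 1000 UMIs, the gate took 28 of 9682 DOPAC cells (0.289%) and 21 of 8341 Control cells (0.252%), and the difference turned to 0.0374 points (-0.122 to 0.193). Log2 ratios given below as after thinning come from the full counts of these 28 and 21 cells. Their depth still differed, at medians of 7348.5 and 20420 UMIs. Thinning also lowered the UMIs read by the criteria against other cell types, so these cells need not lie in the main gate. Values from them are therefore not a check of depth on the same cells. Shares of cells given below as after thinning come from the 74 and 106 cells of the main gate, each thinned to 1000 UMIs.

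**Figure D1:**
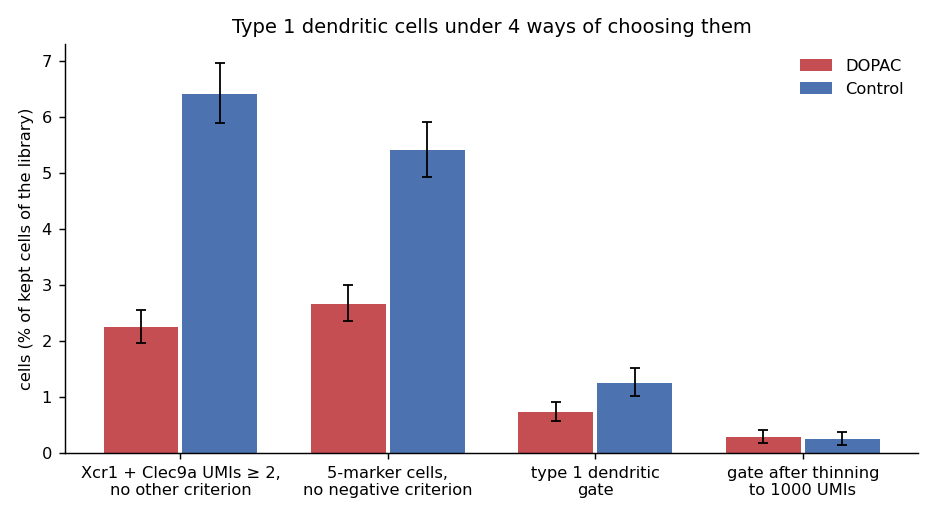
Cells taken as type 1 dendritic cells, as a percentage of the kept cells of each library, under 4 ways of choosing them; bars are 1 library each and lines are exact 95% intervals for counting error. The DOPAC share is below the Control share in the first 3 pairs (0.733% and 1.26% for the gate) and the intervals overlap in the last, after thinning to 1000 UMIs (0.289% and 0.252%).

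The criteria against other cell types removed different cells in the 2 libraries. Of the 228 DOPAC cells with at least 2 UMIs of Xcr1 and Clec9a, 140 (61.4%) carried a Cd3 UMI, and 105 failed on that criterion alone. Of the 542 such Control cells, 141 (26.0%) carried a Cd3 UMI, and 44 failed on it alone. C1q UMIs removed 37 DOPAC cells (16.2%) and 270 Control cells (49.8%), and 7 DOPAC and 133 Control cells failed on it alone. Siglech, a plasmacytoid marker, was present in 4 DOPAC and 130 Control cells. The gate thus kept 32.5% of the DOPAC and 19.6% of the Control cells, and the part of other cells' RNA in these losses was not tested.

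Markers of other cells were present and not equal. Genes with 20 or more UMIs over both sums are called measured. Of all 7770 such genes, 16.5% were at least 1.5-fold higher in DOPAC cells and 15.4% at least 1.5-fold lower. The monocyte genes summed to 2363 CPM in DOPAC cells and 1482 CPM in Control cells, the highest of these lists, with per-cell ranges of 0 to 70.4 (median 20.5) per 10000 UMIs in DOPAC cells and 1.3 to 59.5 (median 12) in Control cells. Of that list, 4 of 11 measured genes were at least 1.5-fold higher and 3 at least 1.5-fold lower, and Plac8, which is not limited to monocytes, had 935 UMIs in DOPAC and 1985 in Control cells. The 18 T-cell genes summed to 571 CPM in DOPAC cells and 349 CPM in Control cells, with Cd3d, Cd3e and Cd3g at 0 by the gate. Most of the sum came from the chemokine Ccl5 (180 UMIs in DOPAC and 484 in Control cells). Per cell the T-cell genes ranged over 0 to 54.7 (median 4.86) per 10000 UMIs in DOPAC cells and 0 to 142 (median 1.24) in Control cells, and 4 of 5 measured genes were at least 1.5-fold higher and 0 at least 1.5-fold lower, with a median log2 ratio of 1.06. Trac, the T-cell receptor alpha constant gene, had 7 UMIs in DOPAC and 12 in Control cells. In the mature dendritic gate, which also allowed no Cd3 UMI, the T-cell list summed to 10857 CPM in the DOPAC and 5898 CPM in the Control library. A high sum of this list was thus not limited to cells with Cd3 UMIs. The macrophage genes, without C1qa and C1qb, summed to 796 CPM in DOPAC cells and 1198 CPM in Control cells, and Apoe, a lipoprotein abundant in macrophages, had 2 UMIs in DOPAC and 212 in Control cells. The B-cell genes summed to 53.2 CPM in DOPAC cells and 127 CPM in Control cells and the haemoglobin genes to 1.71 CPM in DOPAC cells and 33.9 CPM in Control cells. The plasmacytoid genes, without Siglech, summed to 478 CPM in DOPAC cells and 401 CPM in Control cells. Of that list, 2 of 5 measured genes were at least 1.5-fold higher, Tcf4 among them, and 0 at least 1.5-fold lower. The part of all these transcripts in the results below was not tested.

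Of 7770 genes that had 20 or more UMIs over both sums, 1279 (16.5%) were at least 1.5-fold higher in DOPAC cells and 1200 (15.4%) at least 1.5-fold lower, and the median log2 ratio was 0.03. Log2 ratios were taken with 1 count added to each sum. These counts describe 2 libraries and are the background for every group above and below. The split depended on the cells and the filter: 5-marker cells gave 2410 genes higher and 1367 lower, and all genes without a filter gave 5223 and 1784.

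The genes highest in DOPAC cells were carried by a minority of the cells. Ccdc162 stood at 197 CPM (163 to 237) in DOPAC cells, against 8.97 CPM (5.32 to 14.2) in Control cells, 22-fold higher (13.3 to 38.4), with UMIs in 19 DOPAC and 15 Control cells. Chrm3, a muscarinic acetylcholine receptor, stood at 182 CPM (149 to 219.8) in DOPAC cells, against 9.47 CPM (5.7 to 14.8) in Control cells, in 18 DOPAC and 6 Control cells. Txndc16, a thioredoxin-domain protein, was 6.07-fold higher (4.62 to 8.02) and Actn1, an actin crosslinker, 7.49-fold higher (4.11 to 14.2). Ly6c2, a surface protein of monocytes, was 4.81-fold higher (3.56 to 6.51), at 187 against 38.9 CPM. Gm16124, Creb5 and Dennd5b were 7.86-fold, 5.81-fold and 5.49-fold higher, and Dennd5b turned to a log2 ratio of -0.86 in the cells gated after thinning. Slc7a11, the cystine transporter, was 5.53-fold higher (4.14 to 7.42), but 1 cell held 52.8% of its DOPAC UMIs. Pde7b, a cAMP phosphodiesterase, was 5.98-fold higher (4.11 to 8.8), with 41.2% of the DOPAC UMIs in 1 cell and a log2 ratio of 0.0164 in the cells gated after thinning. Over all kept DOPAC cells Ly6c2 stood higher than in the gated ones, at 415 CPM. Slc7a11, Creb5 and Pde7b stood at 218, 85.0 and 132 CPM there, against 218, 84.0 and 137 CPM in gated DOPAC cells. The other genes named here stood lower over all kept DOPAC cells than in the gated ones.

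Ckb and H2-DMb1 were the most abundant of the 10 genes named as lowest in DOPAC cells. Ckb, brain-type creatine kinase, stood at 204 CPM (169 to 244) in DOPAC cells, against 535 CPM (504 to 568) in Control cells, and was 2.62-fold lower (2.17 to 3.2). H2-DMb1, a subunit of the H2-DM complex that loads peptide on MHC class II, was 2.44-fold lower (2.11 to 2.83). Dusp2, a phosphatase of MAP kinases, and Yars, a tRNA synthetase, were 3.19-fold and 3.13-fold lower. Cd81, a tetraspanin, had 2 UMIs in DOPAC and 70 in Control cells, and Ypel3 had 1 UMI in DOPAC and 51 in Control cells, so that their ratios rest on few counts; the log2 ratio of Cd81 was -0.49 after thinning, and that of Ypel3 -0.40 in 5-marker cells. Lsmem1, Frmd4a and Psmd3, a proteasome subunit, had 4 to 6 UMIs in DOPAC cells and 77 to 106 in Control cells. Il12b, a subunit of interleukin-12, had 7 UMIs in DOPAC and 118 in Control cells, of which 1 cell in each library held 85.7% and 72.9%; UMIs were present in 2 DOPAC and 11 Control cells, and the log2 ratio of -2.11 was 0.15 in cells with neither Ccr7 nor Fscn1.

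Genes induced by interferon were higher in DOPAC cells as a group. Interferon gamma is known to act through GAS elements and through Irf1, and type I interferon through ISRE elements, which a complex with Stat2 and Irf9 reads. Of the interferon gamma response list, 17 of 26 measured genes were at least 1.5-fold higher and 1 at least 1.5-fold lower, with a median log2 ratio of 0.82 beside 0.03 over all genes; the lower gene was Socs3, a feedback inhibitor of cytokine signalling. Of the type I interferon list, 15 of 27 measured genes were at least 1.5-fold higher and 1 at least 1.5-fold lower, with a median log2 ratio of 0.68; that median was 0.13 in the cells gated after thinning and 0.40 in cells with both Xcr1 and Clec9a.

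The promoters of 3 of these genes are shown because they hold the letters that interferon-activated factors are known to read. Capitals mark GAS (TTCNNNGAA) or ISRE (GAAA, any 2 bases, then GAAA) matches on either strand in a stretch of 120 bases within the 250 bases upstream of the RefSeq start, read on the gene's strand in GRCm38.p6. They lie at chr3:142620543-142620662 (plus strand), chr11:48871421-48871540 (minus strand, 2 overlapping matches) and chr11:53769868-53769987 (plus strand).
Gbp2: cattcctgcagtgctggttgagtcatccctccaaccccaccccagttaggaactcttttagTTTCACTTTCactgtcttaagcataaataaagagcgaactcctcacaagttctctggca
Irgm1: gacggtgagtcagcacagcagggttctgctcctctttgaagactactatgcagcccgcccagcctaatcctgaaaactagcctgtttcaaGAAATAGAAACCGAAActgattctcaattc
Irf1: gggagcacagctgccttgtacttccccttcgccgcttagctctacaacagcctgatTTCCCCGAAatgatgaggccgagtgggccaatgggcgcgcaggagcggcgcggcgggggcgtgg
In the 250 bases upstream of the start, 18 of 23 promoters of measured interferon gamma genes (78.3%) held at least 1 match of either motif, against 9.66% of all 32851 promoters in the RefSeq table. For measured type I interferon genes the share was 40.0% of 25 promoters, and for MHC class II genes 16.7% of 12. Among members at least 1.5-fold higher in DOPAC cells, it was 73.3% of 15 interferon gamma promoters and 38.5% of 13 type I promoters. The interferon lists name known interferon targets, so these shares describe the lists and not the difference between groups. A match is a run of letters and not a site shown to be bound.

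The guanylate-binding protein Gbp2, a GTPase that acts on membranes of intracellular microbes, stood at 97.7 CPM (74 to 127) in DOPAC cells, against 39.4 CPM (31.2 to 49.1) in Control cells. It was 2.48-fold higher (1.73 to 3.53), yet in the cells gated after thinning the log2 ratio was -0.52. Irgm1, an immunity-related GTPase, stood at 75.4 CPM (54.8 to 101) in DOPAC cells, against 22.9 CPM (16.8 to 30.6) in Control cells, 3.29-fold higher (2.13 to 5.09), with UMIs in 31 DOPAC and 24 Control cells. Its relative Iigp1 was 4.15-fold higher (2.89 to 5.99), in 23 DOPAC and 9 Control cells. Irf1, the transcription factor, was 1.53-fold higher (1.17 to 1.99), and its log2 ratio of 0.62 was 0.09 in cells with both Xcr1 and Clec9a. Stat2, a factor of the type I interferon pathway, was 1.87-fold higher (1.44 to 2.42). Fgl2, a secreted and membrane-bound regulator, was 1.82-fold higher (1.57 to 2.1). After thinning, Irf1, Stat2 and Fgl2 kept their sign but not 1.5-fold, at log2 ratios of 0.14, 0.36 and 0.16. Gbp4 and Tgtp1 had the highest log2 ratios of the list among genes named here, 3.0 and 3.55, from 27 UMIs in DOPAC and 11 in Control cells and from 16 UMIs in DOPAC and 4 in Control cells; the Gbp and Tgtp genes have close copies, between which reads may have been split.

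Of the genes also read as type I interferon targets, Ly6a (Sca-1) stood at 717 CPM (649.7 to 789) in DOPAC cells, against 151 CPM (135 to 169) in Control cells, 4.75-fold higher (4.08 to 5.52). In cells thinned to 1000 UMIs, the share with a Ly6a UMI was 40.5% in DOPAC and 9.43% in Control. Oasl1, a protein of the oligoadenylate synthetase family, was 2.61-fold higher (2.17 to 3.13), Ifi27l2a 2.48-fold higher (2.18 to 2.81) and Ifi204, a DNA sensor, 2.87-fold higher (2.14 to 3.83); the log2 ratio of Ifi204 was 0.25 after thinning. Other members did not reach 1.5-fold higher in the main values: Isg15 had a log2 ratio of 0.39, Rsad2 of -0.07 and Usp18, which dampens the response, of -0.97. These depended on the setting. Over 12 settings Isg15 ranged from -0.50 to 1.03, Rsad2 from -0.17 to 2.02 and Usp18 from -0.995 to 0.32.

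Per cell, the summed interferon gamma list ranged over 6.87 to 167 (median 30.7) per 10000 UMIs in DOPAC cells, against 0.731 to 187 (median 13.7) in Control cells. The cells of the libraries overlapped over nearly the whole range, and the highest Control cells reached the highest DOPAC cells. The median log2 ratio of the list was 0.16 in the 28 and 21 cells gated after thinning and 1.97 in 5-marker cells.

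**Figure D2:**
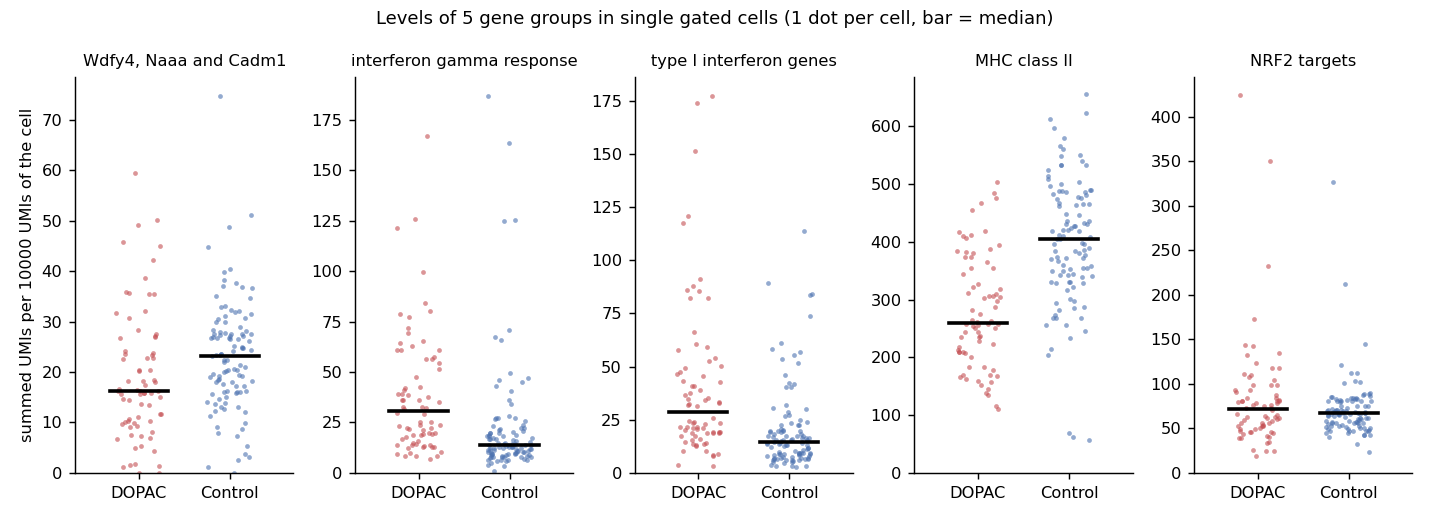
Summed UMIs of 5 gene groups per 10000 UMIs of each gated cell, with 1 dot per cell (74 DOPAC, 106 Control) and the median as a bar. The interferon gamma list has medians of 30.7 in DOPAC and 13.7 in Control cells, MHC class II medians of 260.2 and 405.1, and Wdfy4, Naaa and Cadm1 medians of 16.3 and 23.2.

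Among chemokines that attract T cells, Cxcl9 was higher and Cxcl16 lower. Cxcl9 (chr5:92321331-92328079, GRCm38.p6), a ligand of Cxcr3 on T cells, stood at 818 CPM (746 to 895) in DOPAC cells, against 345 CPM (319.7 to 372) in Control cells, 2.37-fold higher (2.11 to 2.67). It had UMIs in 51 DOPAC and 35 Control cells, and per cell it ranged over 0 to 67.5 (median 2.29) per 10000 UMIs in DOPAC cells against 0 to 101 (median 0) in Control cells. After thinning to 1000 UMIs the share of gated cells with a Cxcl9 UMI was 33.8% in DOPAC and 13.2% in Control. The same share among T cells, a class that should lack it, was 4.78% in DOPAC and 1.61% in Control. Cxcl10, the companion ligand, had a log2 ratio of -0.38, and 1 cell held 49.4% of its Control UMIs; without the top cell of each library the ratio was 0.34. Cxcl16 was 2.07-fold lower (1.51 to 2.89), at a log2 ratio of -0.56 in 5-marker cells. Of the whole chemokine list, 3 of 10 measured genes were at least 1.5-fold higher and 2 at least 1.5-fold lower, namely Cxcl9, Ccl3 and Cxcl2 against Cxcl16 and Ccl9; the median log2 ratio of the list was -0.43 after thinning, beside 0.32.

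Cytokine genes went both ways. Il15, which sustains NK and memory CD8 T cells, stood at 63.4 CPM (44.7 to 87.5) in DOPAC cells, against 15.5 CPM (10.5 to 21.9) in Control cells, 4.11-fold higher (2.48 to 6.84), from 37 UMIs in DOPAC and 31 in Control cells. Il1b, a proinflammatory cytokine, was 1.97-fold lower (1.77 to 2.19), and Il18 2.88-fold lower (1.55 to 5.94), at a log2 ratio of -0.44 after thinning. Of the list, 1 of 8 measured genes was at least 1.5-fold higher and 5 at least 1.5-fold lower; the lower genes were Il12b, Il18, Il1b, Il10 and Tgfb1.

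The summed level of MHC class II genes was lower in DOPAC cells, and H2-DMb1 was among the 4 members at least 1.5-fold lower. The list summed to 27496 CPM in DOPAC cells and 39389.7 CPM in Control cells, and per cell it ranged over 111 to 503 (median 260.2) per 10000 UMIs in DOPAC cells, against 57 to 655 (median 405) in Control cells. H2-DMb1 (chr17:34153191-34160229) stood at 352 CPM (305 to 403) in DOPAC cells, against 858 CPM (818 to 899) in Control cells, and after thinning the share of gated cells with a UMI was 24.3% in DOPAC and 56.6% in Control. Cd74, the invariant chain that occupies the class II groove, stood at 8437 CPM in DOPAC cells and 14629 CPM in Control cells, 1.73-fold lower (1.68 to 1.79). The alpha and beta chain genes lay closer: H2-Aa was 1.28-fold, H2-Ab1 1.43-fold and H2-Eb1 1.15-fold lower, all within 1.5-fold. Ciita, the master regulator of the class II genes, had a log2 ratio of -0.55, which ranged from -1.01 to 0.46 over 12 settings. Of the list, 0 of 16 measured genes were at least 1.5-fold higher and 4 at least 1.5-fold lower (H2-DMb1, H2-DMb2, Cd74 and Ctsl), with a median log2 ratio of -0.36.

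MHC class I genes stood otherwise, with B2m and Nlrc5 higher and the list near 0. B2m, the light chain of every class I molecule, stood at 2373 CPM (2249.8 to 2502) in DOPAC cells, against 1155 CPM (1108 to 1203) in Control cells, 2.05-fold higher (1.92 to 2.2). Nlrc5, the class I transactivator, was 3.33-fold higher (2.46 to 4.5). The heavy chain gene H2-K1 had a log2 ratio of 0.43, and the peptide transporter Tap1 and immunoproteasome subunit Psmb8 of -0.19 and -0.42. Of the class I list, 3 of 20 measured genes were at least 1.5-fold higher and 0 at least 1.5-fold lower, with a median log2 ratio of 0.0032; the higher genes were B2m, Erap1 and Nlrc5. Of the cross-presentation list, 1 of 24 measured genes was at least 1.5-fold higher and 4 at least 1.5-fold lower. Over all measured genes the shares were 16.5% higher and 15.4% lower. The kinase Syk, which signals below Clec9a, was 1.92-fold lower (1.53 to 2.42), at a log2 ratio of -0.57 in the cells gated after thinning. The small GTPase Rab43 was 1.6-fold lower (1.36 to 1.9). The translocon subunit Sec61a1 was 1.62-fold lower (1.12 to 2.41), but its log2 ratio was 0.0594 in the cells gated after thinning.

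Of the transcription factors of dendritic cells, 2 of 22 measured genes were at least 1.5-fold higher and 4 at least 1.5-fold lower: Tcf4 and Klf4 against Irf8, Spi1, Zbtb46 and Nfil3. Irf8 stood at 612 CPM (550.3 to 679) in DOPAC cells, against 1009.9 CPM (966 to 1055) in Control cells, 1.65-fold lower (1.47 to 1.85), and per cell it ranged over 0 to 21.2 (median 4.48) per 10000 UMIs in DOPAC cells, against 0.526 to 28.9 (median 9.15) in Control cells. After thinning the share of gated cells with an Irf8 UMI was 29.7% in DOPAC and 59.4% in Control, and that of T cells 15% in DOPAC and 6.36% in Control. In the cells gated after thinning, the log2 ratio of Irf8 was -0.48, within 1.5-fold, beside -0.72. Batf3 had a log2 ratio of -0.38 with an interval of the fold that included 1, and Id2 of -0.54. Zbtb46, a factor of conventional dendritic cells, was 1.82-fold lower (1.33 to 2.54), Spi1 (PU.1) 1.69-fold lower (1.36 to 2.11) and Flt3, the receptor of their growth factor, 1.92-fold lower (1.47 to 2.54). Klf4 went the other way, at 3.27-fold higher (2.37 to 4.52). Of the identity list, 4 of 26 measured genes were at least 1.5-fold higher and 4 at least 1.5-fold lower: Tlr3, Ifi205, Tlr11 and Cd36 against Irf8, Itgae, Sult1a1 and Rab43. Over all measured genes, 16.5% were higher and 15.4% lower by that measure. Itgae (CD103), the integrin of migratory cells, was 2.21-fold lower (1.6 to 3.13) (a log2 ratio of -0.54 after thinning), while the sensor of double-stranded RNA Tlr3 was 1.6-fold higher (1.11 to 2.28) and the scavenger receptor Cd36 2.74-fold higher (1.99 to 3.76).

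**Figure D3:**
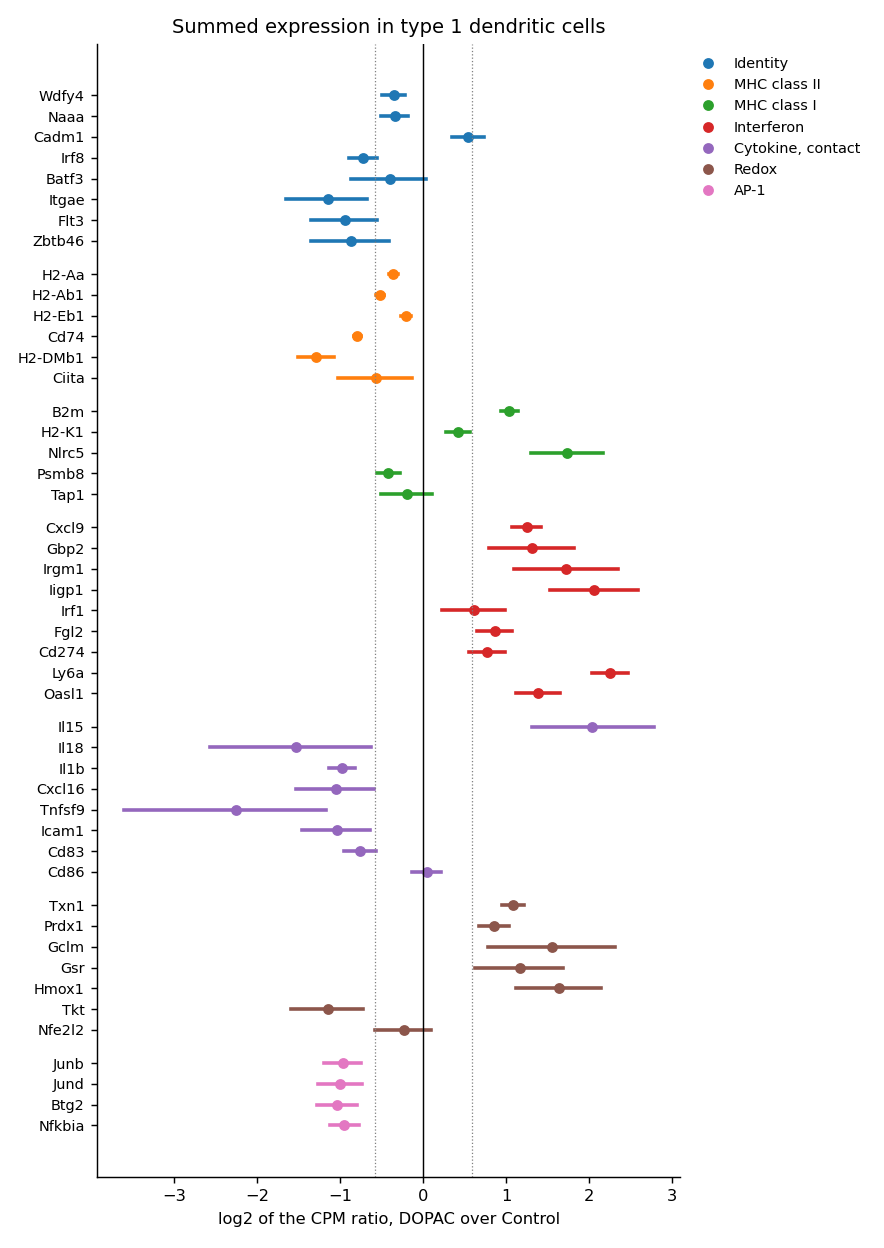
Log2 of the CPM ratio, DOPAC over Control, in the summed type 1 dendritic cells, for genes of 7 groups; lines are 95% intervals for counting error and dotted lines mark 1.5-fold. Interferon genes such as Ly6a (4.75-fold) and Cxcl9 (2.37-fold) lie right of 0, and H2-DMb1 (2.44-fold lower) and Irf8 (1.65-fold lower) left of it.

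The costimulatory genes Cd86, Cd80 and Cd40 lay near 0 on the log2 scale in the main values, and Tnfsf9 and Icam1 were lower. The gate let through cells with 1 of the maturation genes Ccr7 and Fscn1. A UMI of either was present in 11 DOPAC (14.9%) and 43 Control cells (40.6%), the latter being deeper. Leaving these cells out was 1 of the settings tried, and it left 63 cells in each library. Cd86, a ligand of Cd28, stood at 629 CPM in DOPAC cells and 612 CPM in Control cells, and Cd80 and Cd40 had log2 ratios of 0.03 and 0.02. These depended on the setting: over 12 settings Cd80 ranged from -0.82 to 0.42, Cd40 from -0.28 to 0.49 and Cd86 from -0.21 to 0.28. Tnfsf9 (4-1BB ligand) was 4.78-fold lower (2.24 to 12.1) from 7 UMIs in DOPAC and 115 in Control cells, the adhesion molecule Icam1 2.05-fold lower (1.55 to 2.75) (a log2 ratio of -0.51 in cells with neither Ccr7 nor Fscn1), Cd83, a maturation marker, 1.7-fold lower (1.49 to 1.94), and Traf1, an adaptor of the tumor necrosis factor receptor family, 1.8-fold lower (1.43 to 2.29). Over 12 settings, the one without Ccr7 or Fscn1 among them, log2 ratios ranged from -2.89 to -1.50 for Tnfsf9. They ranged from -0.94 to -0.67 for Cd83 and from -1.07 to -0.56 for Traf1. Among inhibitory molecules, Cd274 (PD-L1) was 1.7-fold higher (1.46 to 1.98), Pdcd1lg2 (PD-L2) 1.9-fold higher (1.33 to 2.68) and the receptor Lilrb4a 2.28-fold higher (1.74 to 2.98). PD-L2 turned to a log2 ratio of -0.43 in the cells gated after thinning, where Cd274 was at 0.23. Alcam, a ligand of Cd6 on T cells, stood at 1598 CPM in DOPAC cells and 741 CPM in Control cells, 2.16-fold higher (1.99 to 2.34). Jak2, a kinase of cytokine receptors, was 1.57-fold lower (1.4 to 1.76), at a log2 ratio of -0.11 after thinning.

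Genes of the NRF2 response, which answers oxidative and electrophilic stress, were more often higher than lower. Of the target list, 8 of 18 measured genes were at least 1.5-fold higher and 2 at least 1.5-fold lower, with a median log2 ratio of 0.52. Txn1 (thioredoxin) stood at 1392 CPM (1298 to 1492) in DOPAC cells, against 658 CPM (623 to 694) in Control cells, 2.12-fold higher (1.94 to 2.31), and Prdx1 (peroxiredoxin) was 1.81-fold higher (1.59 to 2.05). Gclm, of glutathione synthesis, was 2.93-fold higher (1.72 to 4.96), Gsr, glutathione reductase, 2.24-fold higher (1.55 to 3.21) and Hmox1, heme oxygenase, 3.1-fold higher (2.17 to 4.42). Tkt, a pentose phosphate enzyme, was 2.21-fold lower (1.65 to 3.01). Per cell the list had medians of 71.4 and 67.3 per 10000 UMIs in DOPAC and Control cells, which lay close. Nfe2l2, which encodes NRF2, and its inhibitor Keap1 had log2 ratios of -0.23 and 0.24. Bnip3, a mitophagy receptor, had 18 UMIs in DOPAC and 34 in Control cells, and its log2 ratio of 0.90 turned to -1.72 in the cells gated after thinning; of the mitophagy list, 3 of 18 measured genes were at least 1.5-fold higher and 2 at least 1.5-fold lower, and Fkbp8, another receptor, was 3.68-fold lower (2.18 to 6.71). Only 3 of the 21 catechol and monoamine genes were measured.

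Immediate-early genes were more often lower. Of the list, 4 of 22 measured genes were at least 1.5-fold higher and 10 at least 1.5-fold lower. Junb stood at 336 CPM (291 to 387) in DOPAC cells, against 657 CPM (622 to 694) in Control cells, 1.96-fold lower (1.68 to 2.28), and Jun, Jund, the antiproliferative gene Btg2 and the NF-kappa B inhibitor Nfkbia were 1.9-fold, 2.0-fold, 2.05-fold and 1.93-fold lower. The log2 ratios of Jun and Jund were -0.32 and -0.58 in the cells gated after thinning, at their full counts. Klf2 was 2.4-fold lower (1.68 to 3.54) (a log2 ratio of -0.48 in 5-marker cells), whereas Egr3 was 2.62-fold higher (2.0 to 3.41). UMIs of Mki67 or Top2a, genes of dividing cells, were present in 16 DOPAC (21.6%) and 44 Control cells (41.5%), and after thinning in 10.8% and 7.55%, in the opposite order. Of the S-phase list, 6 of 20 measured genes were at least 1.5-fold higher and 2 at least 1.5-fold lower, and of the G2/M list, 7 of 20 measured genes were at least 1.5-fold higher and 2 at least 1.5-fold lower. The median log2 ratio of the G2/M list was 0.48 and ranged from -0.40 to 1.23 over 13 settings. Pcna, the DNA clamp, was 1.83-fold higher (1.4 to 2.37), at a log2 ratio of 0.49 after thinning.

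Receptors and enzymes for uptake and breakdown of dead cells showed no single direction. Of the uptake list, 4 of 9 measured genes were at least 1.5-fold higher and 1 at least 1.5-fold lower, without the gate gene Clec9a. Dnase1l3, a secreted nuclease that digests DNA of dying cells, was 1.8-fold higher (1.28 to 2.51), but its log2 ratio was 0.0164 after thinning, 0.34 in cells with both Xcr1 and Clec9a and 0.49 in 5-marker cells. Of the lysosome list, 2 of 21 measured genes were at least 1.5-fold higher and 4 at least 1.5-fold lower, with a median log2 ratio of -0.31 (0.15 in 5-marker cells). The protease cathepsin D (Ctsd) had 9 UMIs in DOPAC and 120 in Control cells and was 3.88-fold lower (1.97 to 8.68), but its log2 ratio was -0.27 after thinning and turned to 0.15 in 5-marker cells; Ctsz, cathepsin Z, was 1.65-fold lower (1.34 to 2.05). Among chemokine receptors other than the gate genes, 2 of 8 measured genes were at least 1.5-fold higher and 0 at least 1.5-fold lower; Ccr1, a receptor of inflammatory chemokines, had 13 UMIs in DOPAC and 9 in Control cells. Of the pattern recognition list, 4 of 15 measured genes were at least 1.5-fold higher and 0 at least 1.5-fold lower.

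Of the nuclear genes of the respiratory chain, 4 of 36 measured genes were at least 1.5-fold higher and 1 at least 1.5-fold lower, with a median log2 ratio of 0.13. Of the glycolysis list, 3 of 16 measured genes were at least 1.5-fold higher and 2 at least 1.5-fold lower, with a median log2 ratio of 0.03, which was -0.55 after thinning; Pfkl, the liver-type phosphofructokinase, had 3 UMIs in DOPAC and 58 in Control cells, and Pfkfb3, which makes its activator, was 2.12-fold higher (1.45 to 3.07). Of the hypoxia list, 4 of 12 measured genes were at least 1.5-fold higher and 0 at least 1.5-fold lower, and Hif1a, the oxygen-regulated factor, was 1.6-fold higher (1.26 to 2.01). The mitochondrially encoded genes mt-Nd4l and mt-Atp8 had log2 ratios of 3.80 and 3.40; both were also at least 1.5-fold higher in the T, macrophage and Cd209a gates. Of the heat shock list, 4 of 12 measured genes were at least 1.5-fold higher and 0 at least 1.5-fold lower, and the chaperone gene Hspa1a was 1.95-fold higher (1.58 to 2.39). Without cells that had a Mki67 or Top2a UMI, the log2 ratio of Hspa1a was -0.77 beside 0.97 with them; it was 0.087 without the cell that held most of its UMIs, and the median of the list without the dividing cells was -0.12 beside 0.39 with them.

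The same genes in other gates of the same libraries were set side by side. In the C1q macrophage gate (248 DOPAC and 873 Control cells) 29 of 31 measured genes were at least 1.5-fold higher and 0 at least 1.5-fold lower of the interferon gamma list, with a median log2 ratio of 1.95, where 17% of all measured genes were higher and 19.9% lower. In the Cd209a dendritic gate (50 and 170 cells) the median log2 ratio of that list was 0.83, in the mature gate (63 and 151) 0.60 and in the T gate (4733 and 1433) 0.52. Cxcl9 had log2 ratios of 1.25 in type 1 dendritic cells, 2.01 in Cd209a cells, 2.13 in mature cells, 2.69 in macrophages and 1.73 in T cells. The differences between gates were not tested, and the gates share their libraries. Of the genes named above as at least 1.5-fold higher, Cxcl9, Plac8, Gbp2, Irgm1, Iigp1, Fgl2, Gbp4, Ly6a, Ifi27l2a, Nlrc5, Erap1, Ifi205, Tlr11 and Cd36 were so in the T, macrophage and Cd209a gates too, and of those lower, Apoe, H2-DMb2, Spi1, Zbtb46, Flt3, Tnfsf9, Cd83, Fkbp8 and Nfkbia.

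MHC class II had median log2 ratios of -0.57 in the Cd209a gate, -0.68 in the mature gate, 0.26 in macrophages and -1.41 in T cells, where the list summed to 1784 CPM in the DOPAC and 4769 CPM in the Control library. Mouse T cells are known to make little class II RNA of their own, and the part of free RNA in the dendritic values was not tested. Irf8 had log2 ratios of -0.72 in type 1 dendritic cells, 0.41 in Cd209a cells, 0.51 in mature cells and 0.63 in macrophages. Icam1 had -1.01 in type 1 dendritic cells and 0.29 in Cd209a cells, and Cxcl16 -1.02 and 0.43. Junb and Nfkbia were below 0 in all 6 gates drawn.

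**Figure D4:**
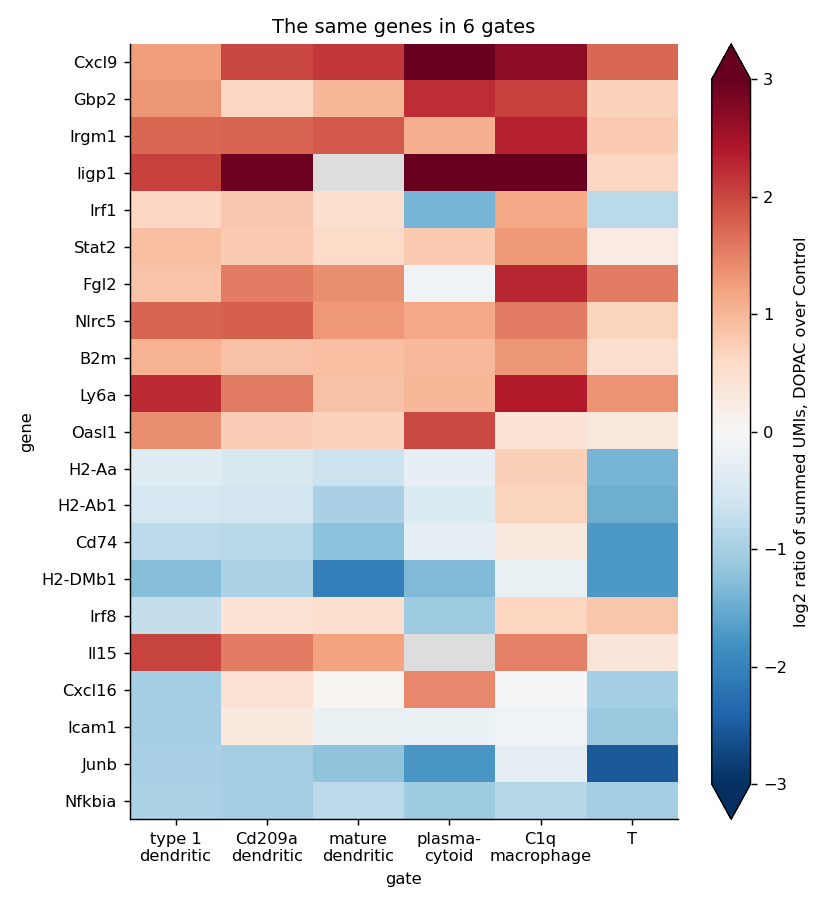
Log2 ratios of summed UMIs, DOPAC over Control, for 21 genes in 6 gates of the same 2 libraries; grey fields have under 20 UMIs in both sums together, and colors end at 3 and -3. Cxcl9 is above 0 in every gate (1.25 in type 1 dendritic cells), while Irf8 is -0.72 in type 1 dendritic cells and 0.41 in Cd209a cells.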

How the data were processed

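CD45-positive tumor cells were measured in 2 libraries, 1 per group. The files hold raw UMI counts as deposited by the authors, made per the file headers with Cell Ranger 7.0.1 and per the submitters' processing notes on GRCm38. Gene names and barcodes were used as deposited. Members and gene lists were chosen with earlier results of these data known. Counts were summed over gated cells per library and given as CPM; shares have Clopper-Pearson intervals, differences Newcombe intervals, CPM exact Poisson intervals and folds exact conditional binomial intervals. Named were the rule's markers, the 10 genes farthest apart in each direction by interval bound, up to 4 members per list and fixed redox and catechol genes. The 10 genes had at least 50 UMIs, and gate, mitochondrial, ribosomal, T-cell receptor, immunoglobulin, haemoglobin and library-wide genes were left out. Left out too were genes more than 3-fold below their CPM over all kept cells, in the library where they were higher. Isg15, Rsad2, Usp18, Trac, Apoe and list members outside this limit that give context (such as Cd86, Junb or Cxcl10) were chosen after their values were seen. Doublets were scored with Scrublet (scanpy 1.11.5); its automatic threshold marked 0 DOPAC cells, so the 870 highest scores were taken there and 339 cells in Control. Promoters came from RefSeq. Some list members are not reported here. Alternatives covered depth, gate, doublets, mitochondrial limit, summing, scaling and filters. The interval code was checked on simulated counts.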

Additional observations from a re-analysis of the deposited data

How the results depend on the processing

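No paired analysis was possible because each group has 1 library and no test was made. The share difference was 0.0374 points after thinning, -0.122 with Ccr7 and Fscn1 both at 0 and -2.74 with 5-marker cells; the share among dendritic gates stayed between 12.2 and 20.4 points higher in all 7 settings. Genes at least 1.5-fold higher numbered 2410 with 5-marker cells, 695 with at least 50 UMIs and 5223 without a filter; genes lower numbered 707 after thinning and 714 with at least 50 UMIs. After thinning, the log2 ratio changed sign for Dennd5b (-0.86), Gbp2 (-0.52), Pdcd1lg2 (-0.43), Bnip3 (-1.72) and Sec61a1 (0.059). Il12b changed sign to 0.50 after thinning, 0.15 with Ccr7 and Fscn1 at 0, 0.26 in cells of 5000 to 20000 UMIs and 0.081 without Mki67 or Top2a cells. Hspa1a changed sign to -0.78 after thinning and -0.77 without Mki67 or Top2a cells. In 5-marker cells Usp18 changed sign to 0.32 and Ctsd to 0.15. Isg15, Rsad2, Ciita, Cd86, Cd80, Cd40 and Mki67 changed sign in 1 or more settings. Among lists, medians after thinning were -0.55 for glycolysis, -0.43 for chemokines and -0.21 for heat shock. Over 13 settings the median of the G2/M list ranged from -0.40 to 1.23 and that of the immediate-early list from -0.49 to 0.05. Tlr3, Hif1a, Traf1 and Rab43 came within 1.5-fold in 1 or more settings, with their sign kept. The cytokine list changed to 0.062 without Mki67 or Top2a cells, and the catechol list to 0.25 with Ccr7 and Fscn1 at 0 and 0.50 without a filter. The cause was not tested. Gating after thinning took 28 DOPAC and 21 Control cells, which were not limited to cells of the main gate. Their full counts were then summed. The window of 2000 to 10000 UMIs left 58 and 3 cells and gave no values. The 5-marker choices, the window of 5000 to 20000 UMIs and leaving out the top cell of a gene were chosen after seeing the data.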
